A study of Mus musculus with 16 samples.

Results

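Innate pattern and Fc receptors were followed across 6 mouse cell populations. The set holds every gene whose symbol in the array's probe-to-gene table is Tlr with a number, Clec with a number and at most a letter and a digit, or begins with Fcgr. Letter case was ignored, since the table writes its symbols in capitals. This gave 46 of the 17710 genes measured, namely 12 Toll-like receptors, 29 genes of the C-type lectin family and 5 genes named Fcgr, and each was read from the probe with the highest mean. The name fits most of the set by background knowledge but not all of it. Clec3b encodes tetranectin, a secreted plasminogen-binding protein, Clec11a encodes a secreted growth factor of the bone marrow and skeleton, and Clec16a encodes a regulator of endosomes and autophagy, so these are neither pattern nor Fc receptors.

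Toll-like receptors sense microbial lipids, proteins and nucleic acids through adaptor proteins that end in NF-κB and interferon regulatory factors. C-type lectins such as the β-glucan receptor Clec7a bind sugars and glycolipids of fungi and bacteria, and many signal through immunoreceptor tyrosine-based activation motifs (ITAM). Activating Fcγ receptors bind the constant part of IgG and use the ITAM-bearing γ chain encoded by Fcer1g, whereas Fcgr2b encodes the inhibitory receptor. These genes are best known from macrophages, neutrophils and dendritic cells, but Tlr2, Tlr3, Tlr4 and the IgG-recycling receptor Fcgrt are also expressed by stromal and endothelial cells.

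The 16 arrays came from C57BL/6 mice of normal genotype, and their series compares cardiac progenitors with cardiomyocytes. Marrow mesenchymal stem cells (marrow MSC, n = 3) had been cultured for 5 passages. Heart c-kit cells and marrow c-kit cells (n = 3 each) were sorted by flow cytometry for the receptor c-kit. Heart Sca1 cells (n = 3) were, per the labels, sorted for Sca1 and for the absence of CD45 and CD31, the leukocyte and endothelial antigens. Heart side population cells (heart SP, n = 2) were picked by their efflux of Hoechst dye, and cardiomyocytes (n = 2), the control of the series, were spun down (100 rpm, 1 min). The same growth protocol with coated dishes is given for all groups. No age, sex, number of animals or pooling is given in the labels, so p-values reflect only how far these arrays differ among themselves, perhaps for technical reasons. With 2 or 3 arrays per group, precision is low throughout. In such bulk samples fewer cells of a type and less RNA per cell cannot be told apart.

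Levels are quantile-normalised log2 Cy5 signals. On marrow c-kit replicate 1 the median level over all genes was 0.66 and the 75th percentile 3.42. Medians over all genes ran from 0.58 on heart c-kit replicate 2 to 0.83 on MSC replicate 1. Arrays carry a repeated low value, called the fill here, and a gene at or below it has no measured level. Of the 46 genes, 25 were above the fill on every array and 21 were at or below it on at least 1 array. Clec4b2 (10 arrays), Clec2i and Clec4a1 (9 arrays each) and Clec5a (8 arrays) were at it most often. Median spot intensities ran from 15 to 200 between arrays. The lowest belonged to heart SP (15 and 22) and to heart c-kit replicate 2 (18).

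Marker lists were read beside the receptors, because most of these receptors are leukocyte genes. The macrophage and monocyte list, of which 14 of 15 genes were measured, had mean levels of 5.28 to 5.86 on the MSC arrays, -0.48 to -0.12 on heart c-kit arrays, 2.17 to 2.64 on marrow c-kit arrays, -1.63 and -1.94 on heart SP arrays, and 2.04 and 3.37 on cardiomyocyte arrays. Heart Sca1 arrays gave -1.49 and -1.17 for replicates 1 and 2 but 2.42 for replicate 3. That array also stood apart in the endothelial list, at 5.39 against 0.33 and 2.20, so results on heart Sca1 cells are given with and without it. On heart Sca1 arrays Pecam1, which encodes CD31, was at 1.57, 3.39 and 5.38 and Ptprc, which encodes CD45, at 0.40, -0.89 and 2.94, so RNA of both antigens was measured on replicate 3 although the sort was negative for them. Among the MSC arrays, C1qa was at 8.11, 7.92 and 7.60, Csf1r at 6.59, 6.89 and 5.87 and Ptprc at 6.71, 7.53 and 6.91. Their macrophage list averaged 5.66, with 13 of 14 genes above the all-gene median on every MSC array. Their fibroblast list averaged 2.77, with 5 of 7 genes above it. The high macrophage list goes against a purely mesenchymal label, while most fibroblast genes were measured too. Marrow MSC is used here as the name of the samples only. The 12 measured neutrophil genes averaged 3.14 to 3.53 on marrow c-kit arrays and below 0 on every other array. The fibroblast list was lower in MSC (1.93 to 3.40) than in heart Sca1 cells (6.29 to 6.56), and the cardiomyocyte list was highest in cardiomyocytes (6.81 and 6.85). The endothelial list was nearly as high on the cardiomyocyte arrays (6.25 and 6.75), beside 5.66 to 6.48 on heart c-kit arrays. The name cardiomyocytes is therefore also used as that of the samples only. No macrophage marker was at the fill on all arrays of any group, and the part of macrophages or other admixed cells in the results below was not tested.

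**Figure D1:**
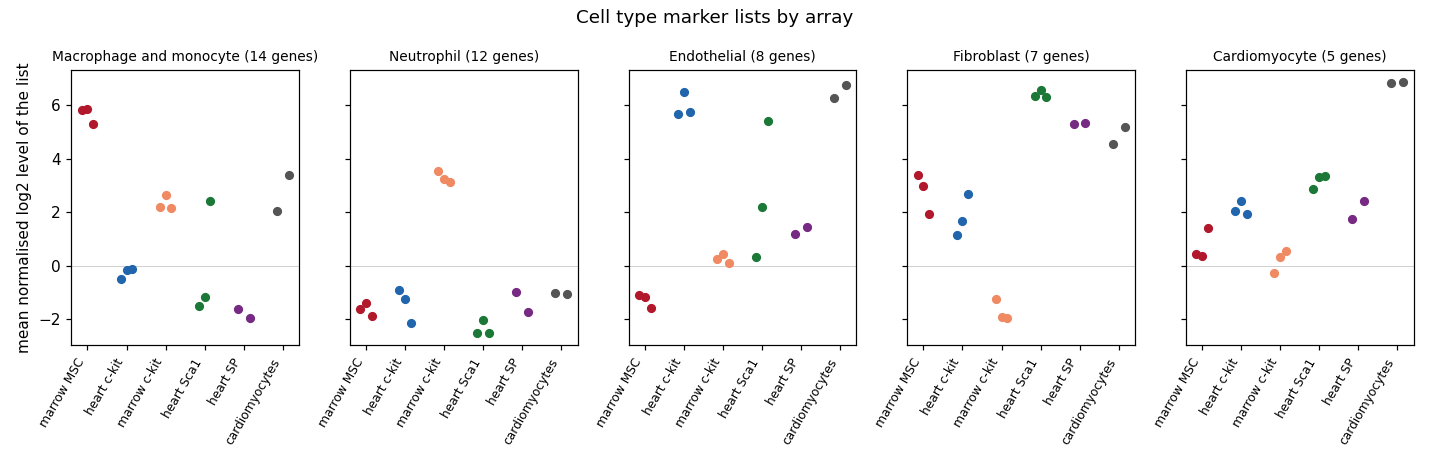
Mean normalised log2 level (vertical axis) of 5 cell type marker lists on each array, with groups along the horizontal axis and a point per array. MSC arrays sit highest in the macrophage and monocyte list (5.28 to 5.86), marrow c-kit arrays in the neutrophil list, and heart Sca1 replicate 3 lies apart from its group in the macrophage and endothelial lists.

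Start regions of 4 genes are shown, those of the lectins Clec4d and Clec7a and the activating Fc receptors Fcgr4 and Fcgr3, because these 4 had the largest excess of MSC over heart Sca1 cells. The sequences are RefSeq windows on GRCm38.p6 from 250 bases before to 50 bases after the gene start, written along the gene's own strand. Clec4d lies at chr6:123261857-123262156 (plus strand), Clec7a at chr6:129472730-129473029 (minus strand), Fcgr4 at chr1:171018676-171018975 (plus strand) and Fcgr3 at chr1:171059354-171059653 (minus strand). Capitals mark GAGGAA and its reverse complement TTCCTC, a purine-rich core bound by ETS family factors such as PU.1, which acts in myeloid cells.
Clec4d: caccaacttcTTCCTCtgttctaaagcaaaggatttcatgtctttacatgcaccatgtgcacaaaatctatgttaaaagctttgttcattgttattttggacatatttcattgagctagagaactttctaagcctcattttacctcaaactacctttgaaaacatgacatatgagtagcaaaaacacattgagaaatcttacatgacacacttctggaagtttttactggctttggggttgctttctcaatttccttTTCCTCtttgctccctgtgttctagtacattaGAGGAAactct
Clec7a: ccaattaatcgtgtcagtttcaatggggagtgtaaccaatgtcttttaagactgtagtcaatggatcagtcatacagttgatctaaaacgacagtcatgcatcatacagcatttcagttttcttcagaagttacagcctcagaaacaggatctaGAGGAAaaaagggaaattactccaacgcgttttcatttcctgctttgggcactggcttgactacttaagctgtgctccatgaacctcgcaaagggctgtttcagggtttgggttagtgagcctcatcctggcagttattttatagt
Fcgr4: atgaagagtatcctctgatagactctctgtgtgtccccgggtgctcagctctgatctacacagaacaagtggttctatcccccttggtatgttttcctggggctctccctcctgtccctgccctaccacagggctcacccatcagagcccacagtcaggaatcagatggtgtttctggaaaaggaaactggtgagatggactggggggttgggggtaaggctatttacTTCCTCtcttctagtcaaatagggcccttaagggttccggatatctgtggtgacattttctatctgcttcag
Fcgr3: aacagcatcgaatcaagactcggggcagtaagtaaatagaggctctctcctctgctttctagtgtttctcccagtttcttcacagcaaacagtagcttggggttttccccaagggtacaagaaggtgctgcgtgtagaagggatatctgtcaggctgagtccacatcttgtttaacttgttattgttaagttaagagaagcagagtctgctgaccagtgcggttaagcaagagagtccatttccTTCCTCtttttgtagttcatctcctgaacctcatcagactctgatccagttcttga
Clec4d held 3 matches, and Clec7a, Fcgr4 and Fcgr3 held 1 each. Windows were found for 39 of the 46 genes, and Clec10a, Clec1a, Clec3a, Clec3b, Clec4n, Tlr4 and Tlr7 are named only. On both strands the motif occurred in 21 of the 39 windows (53.8%), against 7652 of 27025 (28.3%) over every gene with a window. That background holds more genes than the array measured, so these shares come from unlike gene sets. Of the 39 genes 6 had several windows, and 1 window per gene was counted. The motif occurred in 11 of 18 windows of the genes that differed among the 6 groups (61.1%). Among genes that did not pass that test it occurred in 10 of 21 windows (47.6%). A match of 6 letters is a description and not a binding site.

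Differences anywhere among the 6 groups came first. In the limma F test, 22 of the 46 genes passed an adjusted p under 0.05 (47.8%), against a background of 31.9% of all genes. By family these were 7 of 12 Toll-like receptors, 11 of 29 C-type lectin genes and 4 of 5 Fcgr genes, all except Fcgr1. The smallest adjusted p-values belonged to Clec4d (8.93e-06), Clec3b (1.17e-05), Fcgr3 (4.1e-05), Clec4b2 (7.83e-05) and Fcgr4 (8.44e-05, limma F test). Marrow MSC had the highest mean for 14 of the 46 genes (30.4%, against 16.9% of all genes). Heart SP had it for 11 (23.9%, against 23.1%), marrow c-kit cells for 7 (15.2%, against 18.4%), cardiomyocytes for 6 (13%, against 12.1%), heart Sca1 cells for 5 (10.9%, against 12.7%) and heart c-kit cells for 3 (6.52%, against 16.8%). Between the highest and the lowest group mean lay a median of 3.71 log2 units over the 46 genes, with a range from 1.46 to 12.45. The largest was that of Clec4d, whose lowest group, heart SP, was at the fill on both arrays. Spans that rest on a group at the fill, as this one does, are no measured sizes.

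**Figure D2:**
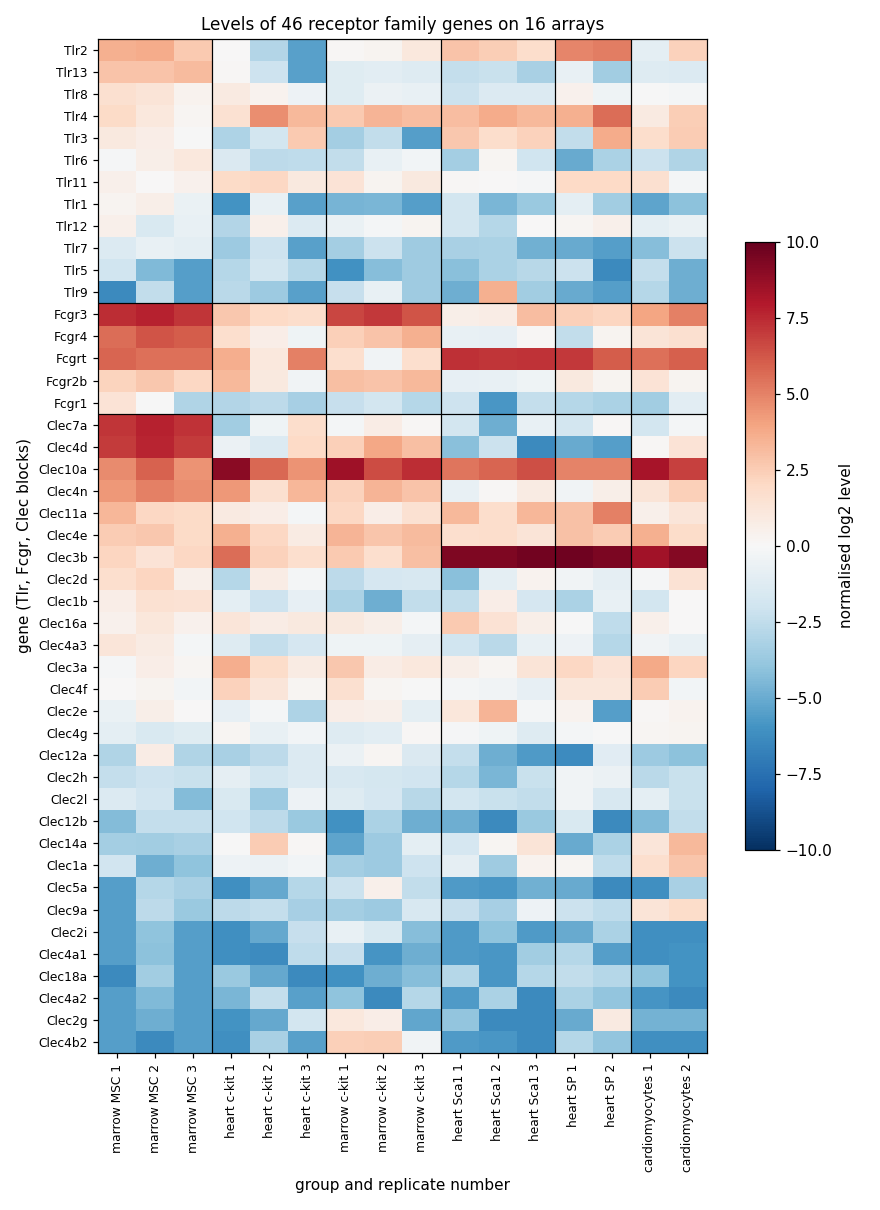
Normalised log2 level (colour, blue low and red high) of the 46 genes in rows, blocked into Tlr, Fcgr and Clec genes and ordered by their MSC mean, on the 16 arrays in columns. Clec4d and Clec7a are red on the 3 MSC arrays, Clec3b is darkest on heart Sca1, heart SP and cardiomyocyte arrays, and Clec4b2 is higher on marrow c-kit arrays than on all others.

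Clec4d encodes a receptor of neutrophils and monocytes for mycobacterial glycolipids. Its level was 6.96, 7.60 and 6.96 in marrow MSC, -0.58, -1.36 and 2.00 in heart c-kit cells, 2.39, 3.83 and 3.04 in marrow c-kit cells, -4.22, -2.16 and -6.33 in heart Sca1 cells, -5.06 and -5.50 in heart SP and 0.10 and 1.39 in cardiomyocytes. Every MSC array lay above every other array, and both heart SP arrays and heart Sca1 replicate 3 were at the fill. As linear intensities the MSC spots read 16144, 29041 and 12565, against 1 on each heart SP array. The mean levels ran from MSC through marrow c-kit cells, cardiomyocytes, heart c-kit cells and heart Sca1 cells to heart SP. Marrow c-kit cells and cardiomyocytes did not overlap, although their difference of 2.34 ± 1.11 did not pass (SE, limma adjusted p = 0.226), while heart c-kit cells and cardiomyocytes did overlap (difference -0.73 ± 1.11, adjusted p = 0.827).

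Clec7a, the receptor for fungal β-glucan, was at 7.12, 7.70 and 7.22 in marrow MSC, at -3.44, -0.44 and 1.79 in heart c-kit cells, at -0.21, 0.77 and 0.12 in marrow c-kit cells, at -1.82, -4.88 and -0.71 in heart Sca1 cells, at -1.83 and 0.13 in heart SP and at -1.83 and -0.20 in cardiomyocytes. The MSC arrays were again above all others, and the other 5 groups overlapped each other except for marrow c-kit cells against heart Sca1 cells. Clec4n encodes a receptor for fungal mannans and sits next to Clec4d. Its level was 4.37, 5.04 and 4.66 in marrow MSC, 4.31, 1.58 and 3.31 in heart c-kit cells, 2.30, 3.43 and 2.88 in marrow c-kit cells, -0.71, 0.12 and 0.84 in heart Sca1 cells, -0.35 and 0.57 in heart SP and 1.28 and 2.38 in cardiomyocytes. Heart Sca1 and heart SP arrays were the lowest.

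Fcgr3 and Fcgr4 encode activating IgG receptors. Fcgr3 was at 7.35, 7.72 and 7.15 in marrow MSC and at 6.66, 7.09 and 6.27 in marrow c-kit cells. It was at 2.71, 2.02 and 1.72 in heart c-kit cells, 0.57, 0.75 and 3.09 in heart Sca1 cells, 2.39 and 2.11 in heart SP and 3.91 and 5.04 in cardiomyocytes. Both marrow groups were above every heart array, and heart Sca1 replicate 3 was the highest array of its group. Fcgr4 was at 5.58, 6.29 and 6.06 in marrow MSC, at 1.69, 0.68 and -0.40 in heart c-kit cells, at 2.39, 2.87 and 3.56 in marrow c-kit cells, at -0.75, -0.83 and 0.14 in heart Sca1 cells, at -2.46 and 0.26 in heart SP and at 1.30 and 1.60 in cardiomyocytes. For Fcgr4 the 3 MSC arrays and then the 3 marrow c-kit arrays were the highest. Fcgr1, the high-affinity IgG receptor, spread from -3.03 to 1.34 within MSC and did not pass the F test (limma adjusted p = 0.335).

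Fcgrt, which encodes the receptor that recycles IgG and albumin, had another pattern. It was at 7.32, 7.17 and 7.24 in heart Sca1 cells, 7.04 and 6.08 in heart SP, 5.55 and 5.96 in cardiomyocytes and 5.79, 5.47 and 5.51 in marrow MSC, against 3.61, 1.07 and 5.05 in heart c-kit cells and 1.69, -0.36 and 1.69 in marrow c-kit cells. The c-kit groups were thus the 2 lowest, with a wide spread in the heart. Fcgr2b depends on the probe. The probe used here was at 2.20, 2.69 and 2.08 in marrow MSC and 2.98, 2.89 and 3.22 in marrow c-kit cells, a difference of -0.71, whereas the other 2 probes gave -4.59 and -5.07 for the same comparison. Against heart Sca1 cells all 3 probes were higher in MSC, by 3.01, 2.23 and 2.22.

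**Figure D3:**
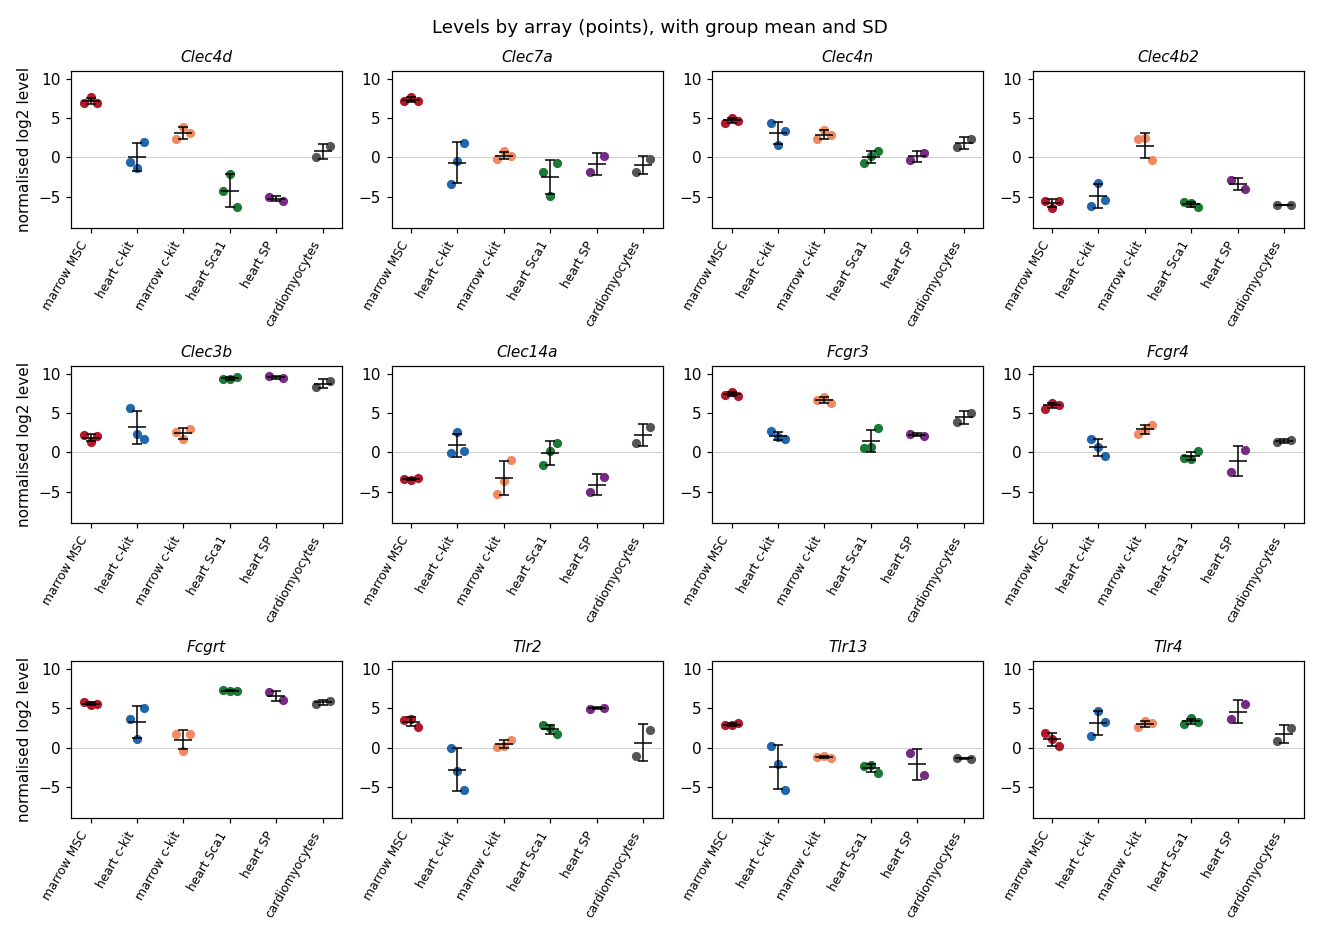
Normalised log2 level (vertical axis) of 12 named genes by group (horizontal axis), with a point per array and the group mean with its SD as a bar. The 3 MSC arrays stand above all others for Clec4d, Clec7a, Fcgr4 and Tlr13, and Clec3b separates heart Sca1 cells, heart SP and cardiomyocytes from the rest.

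Marrow MSC were first set against marrow c-kit cells, which compares the MSC with the c-kit-sorted cells of the marrow. A passage number is given for MSC only, and the labels do not say that the sorted cells were uncultured. Of the 46 genes 8 were higher in MSC and 1 was lower, where 11% of all genes were called, 7.37% as higher and 3.66% as lower. The 8 were Clec7a, Tlr1, Clec1b, Fcgrt, Tlr13, Clec4d, Fcgr4 and Tlr8. The median difference was -0.06 over the 46 genes and -0.14 over all genes. Clec7a was higher by 7.11 ± 1.21 (SE, limma adjusted p = 0.00139), and Clec4d by 4.09 ± 1.00 (adjusted p = 0.016). Tlr1, whose product pairs with that of Tlr2 to bind bacterial lipoproteins, was higher by 4.95 ± 1.19 (adjusted p = 0.0147) with levels of 0.23, 0.57 and -0.68 in MSC against -4.66, -4.57 and -5.50 in marrow c-kit cells. The marrow c-kit spots of Tlr1 read intensities of only 3, 4 and 1, its difference was 1.68 with low values raised to a floor, and its call was lost in 3 of 24 alternatives, those without marrow c-kit replicate 3, MSC replicate 1 or MSC replicate 2. Clec1b, a receptor for podoplanin best known from platelets, was higher by 4.71 ± 0.94 (adjusted p = 0.00428). Its marrow c-kit spots read intensities of only 8, 3 and 13, and its difference ran from 2.85 to 5.27 over the alternatives.

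Fcgrt was higher in MSC than in marrow c-kit cells by 4.59 ± 0.85 (limma adjusted p = 0.00268) and Fcgr4 by 3.04 ± 0.73 (adjusted p = 0.0142). Fcgr3 differed by 0.73 ± 0.66, which did not pass (adjusted p = 0.574), although no MSC array overlapped a marrow c-kit array. Tlr13, which senses bacterial ribosomal RNA in mice, was at 2.83, 2.84 and 3.15 in MSC against -1.19, -1.03 and -1.31 in marrow c-kit cells, higher by 4.12 ± 1.07 (adjusted p = 0.023). This call was lost in 6 of 25 alternatives, those that left out any single MSC or marrow c-kit array. Tlr2, the lipoprotein receptor, was at 3.54, 3.69 and 2.61 in MSC against 0.15, 0.25 and 1.03 in marrow c-kit cells, and its difference of 2.81 ± 1.11 did not pass (adjusted p = 0.134). Clec4b2 was the only gene of the set that was lower in MSC, where all 3 arrays were at the fill, against 2.39, 2.43 and -0.32 in marrow c-kit cells (adjusted p = 5.46e-05). Of the macrophage list 7 of 14 genes were higher and none lower in MSC, with a list median of 3.77. The fibroblast list had 4 of 7 higher and none lower, with a median of 3.78. In the neutrophil list 7 of 12 were lower, and in the mast cell list 3 of 5. The count of 9 receptors was 5 without marrow c-kit replicate 1 and 4 without MSC replicate 2, where 8.07% and 7.8% of all genes were called.

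Marrow MSC against heart Sca1 cells compared the passaged marrow population with a sorted heart population. Here 9 of the 46 genes were higher in MSC and 1 was lower, where 10.3% of all genes were called, 5.01% as higher and 5.3% as lower. The median difference was 0.39 over the 46 genes and 0.10 over all genes. Clec4d was higher by 11.41 ± 1.00 (SE, limma adjusted p = 1.2e-05) and Clec7a by 9.81 ± 1.21 (adjusted p = 0.000156), the largest excesses of the set. Fcgr4 was higher by 6.46 ± 0.73 (adjusted p = 8.6e-05), Fcgr3 by 5.94 ± 0.66 (adjusted p = 8.32e-05) and Tlr13 by 5.54 ± 1.07 (adjusted p = 0.004). Clec4n, Fcgr2b, Tlr8 and Clec4a3 completed the 9, with differences of 2.43 to 4.61. Of the macrophage list 12 of 14 genes were higher in MSC and none was lower. Without heart Sca1 replicate 3 all 10 calls held, with Clec4d higher by 10.34 and Fcgr3 by 6.77, and Clec2d joined them.

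Clec3b ran the other way. Its level was 2.19, 1.36 and 2.08 in marrow MSC, 5.61, 2.32 and 1.71 in heart c-kit cells, 2.63, 1.67 and 3.03 in marrow c-kit cells, 9.35, 9.33 and 9.63 in heart Sca1 cells, 9.70 and 9.45 in heart SP and 8.37 and 9.14 in cardiomyocytes. The spots of heart Sca1 cells and heart SP all stood at the ceiling of the scanner, so their levels are lower bounds. Clec3b was lower in MSC than in heart Sca1 cells (fitted difference -7.56 ± 0.82, SE, limma adjusted p = 6.71e-05). It was also lower in heart c-kit cells than in heart Sca1 cells (fitted difference -6.22 ± 0.82, adjusted p = 0.000305). Over the alternatives these differences ran from -7.72 to -7.22 and from -7.49 to -5.47. With saturated heart Sca1 spots neither is an exact size, and no fold is given. Heart Sca1 cells, heart SP and cardiomyocytes are also the 3 groups with the highest fibroblast list, at 6.29 to 6.56, 5.29 and 5.33, and 4.55 and 5.16.

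**Figure D4:**
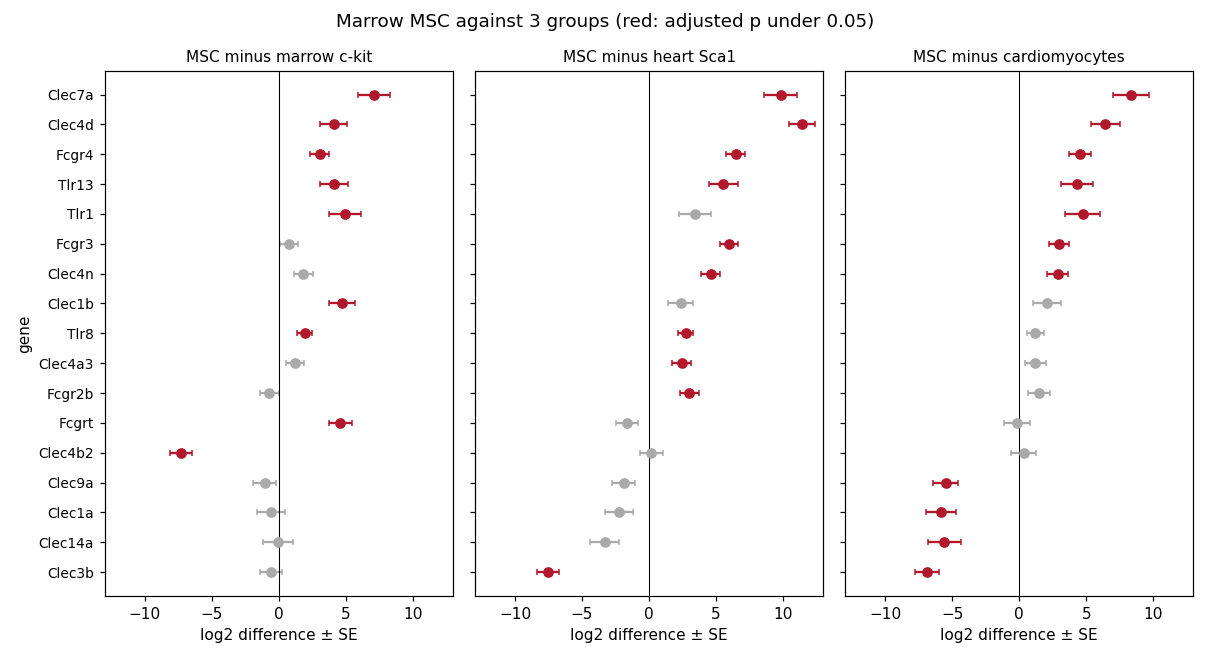
Log2 difference (horizontal axis) of marrow MSC minus marrow c-kit cells, heart Sca1 cells or cardiomyocytes, with its SE as a bar, for the 17 genes called in at least 1 of the 3 comparisons. Red points passed a limma adjusted p under 0.05, and Clec7a and Clec4d lie furthest to the right in the comparison with heart Sca1 cells.

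The c-kit populations of heart and marrow shared a sort marker but came from different organs. Set against marrow c-kit cells, those of the heart had 1 gene of the 46 higher and 2 lower (6.52%), where 10.8% of all genes were called, 4.89% as higher and 5.93% as lower. Clec14a, a lectin of endothelial cells, was at -0.01, 2.56 and 0.15 in heart c-kit cells against -5.26, -3.61 and -1.0 in marrow c-kit cells, higher by 4.19 ± 1.10 (limma adjusted p = 0.0235). Endothelial marker genes were high beside it, with list means of 5.66 to 6.48 in heart c-kit cells and 0.11 to 0.42 in marrow c-kit cells. Fcgr3 was lower in heart c-kit cells by 4.53 on the log2 scale (adjusted p = 0.000417). The count depends on the probe. For Fcgr2b the probe used differed by -1.75 and the others by -7.86 and -6.98. For Clec11a the probe used differed by -0.98 and the other by -5.72. The other probe of Clec14a differed by 2.76. Clec4b2 was at or below the fill on 2 of 3 heart c-kit arrays, at -6.16, -3.24 and -5.41, and was lower there (adjusted p = 0.000141, no fold given). Neutrophil genes moved with it, 6 of 12 being lower in heart c-kit cells and none higher. With the deposited values 1 gene was higher and 4 lower, where 7.74% of all genes were called. Without heart c-kit replicate 1 or 3 the count was 6 in place of 3, where 11.8% and 12.1% were called. Without marrow c-kit replicate 1 or 2 the count was 2, where 8.7% and 7.2% of all genes were called. The call of Clec14a was lost there and in 6 of 25 alternatives in all, among them leaving out heart c-kit replicate 2.

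Heart c-kit cells against heart Sca1 cells compared 2 progenitor sorts of the same organ. The c-kit sort had 3 of the 46 genes higher and 4 lower, where 11.2% of all genes were called, 3.31% as higher and 7.87% as lower. Clec4d was higher by 4.26 ± 1.00 (SE, limma adjusted p = 0.0141), Clec4n by 2.98 ± 0.71 (adjusted p = 0.0154) and Tlr8, an endosomal receptor for RNA, by 1.88 ± 0.55 (adjusted p = 0.0434). Lower were Clec3b, Tlr2, Fcgrt and Clec11a. In the same comparison 5 of 8 endothelial and 3 of 5 mast cell markers were higher and 5 of 7 fibroblast markers lower, with list medians of 3.75, 3.09 and -5.30, and their part was not tested. Tlr2 was at 0.01, -2.95 and -5.41 in heart c-kit cells against 2.85, 2.44 and 1.73 in heart Sca1 cells, with replicate 3 of the c-kit cells at the fill. It was lower (adjusted p = 0.00901), and its fitted difference of -5.12 ± 1.11 ran from -6.64 to -3.43 over the alternatives. Fcgrt was lower by 4.0 ± 0.85 (adjusted p = 0.00831). Without heart Sca1 replicate 3 the differences were 3.17 for Clec4d (adjusted p = 0.0636), 1.98 for Tlr8 (adjusted p = 0.0864) and -2.09 for Clec11a (adjusted p = 0.16), so these 3 calls were lost without that array, while Clec2h passed. With low values raised to a floor Clec4d differed by 1.66 and did not pass (adjusted p = 0.163). The probes of Clec11a gave -2.36 and -7.96. The count of 7 was 4 without heart c-kit replicate 1 or without heart Sca1 replicate 1, where 10.2% and 6.76% of all genes were called.

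Against cardiomyocytes, marrow MSC had 7 of the 46 genes higher and 4 lower, where 7.87% of all genes were called, 3.94% as higher and 3.94% as lower. Higher were Clec7a by 8.36 ± 1.36 (SE, limma adjusted p = 0.00217), Clec4d by 6.43 ± 1.11 (adjusted p = 0.00333) and Fcgr4 by 4.53 ± 0.81 (adjusted p = 0.00402), followed by Tlr1, Tlr13, Fcgr3 and Clec4n at 2.86 to 4.72. Clec3b, Clec1a, Clec14a and Clec9a were lower, with differences of -6.88, -5.84, -5.59 and -5.49. Clec9a, a dendritic cell receptor for actin exposed by dead cells, was at -5.50, -2.64 and -3.69 in MSC, the first of these at the fill, against 1.26 and 1.83 in cardiomyocytes, and its difference ran from -6.16 to -3.19 over the alternatives. Clec1a, known from endothelial and myeloid cells, was at -1.91, -4.88 and -4.02 in MSC against 1.69 and 2.79 in cardiomyocytes. The MSC spots read intensities of only 16, 7 and 3 for Clec1a and 5, 17 and 6 for Clec14a. Over the alternatives the difference ran from -6.61 to -3.88 for Clec1a and from -6.71 to -3.87 for Clec14a. Endothelial markers averaged -1.58 to -1.10 in MSC against 6.25 and 6.75 in cardiomyocytes. The count of 11 was 7 without any single MSC array or without cardiomyocyte replicate 1 and 5 without cardiomyocyte replicate 2.

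Marrow c-kit cells had 2 genes higher and 6 lower than cardiomyocytes, where 12.4% of all genes were called, 5% as higher and 7.44% as lower. Both of the higher genes, Clec4b2 and Clec2i, were at the fill on the 2 cardiomyocyte arrays, so no fold is given. Lower were Clec3b, Tlr3, Clec14a, Clec1a, Fcgrt and Clec9a, by 4.43 to 6.31 on the log2 scale. Tlr3, the receptor for double-stranded RNA, was at -3.41, -2.50 and -5.50 in marrow c-kit cells against 1.74 and 2.57 in cardiomyocytes (difference -5.96 ± 1.67, SE, limma adjusted p = 0.0303). The marrow c-kit spots of Tlr3 read intensities of only 7, 13 and 1. Its difference ran from -6.58 to -3.79 over the alternatives. Its call was lost, among others, with aligned medians, deposited values or low values raised to a floor. Without cardiomyocyte replicate 2 the count was 3 in place of 8.

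Few receptors passed between the cardiac progenitors and cardiomyocytes. In heart c-kit cells only Clec3b (-5.54 ± 0.92, SE, limma adjusted p = 0.00433) and Clec9a (-4.31 ± 0.95, adjusted p = 0.0217) passed, both lower, where 3.6% of all genes were called and 2.6% were lower. That count was 1 without cardiomyocyte replicate 1 and 0 without replicate 2. In heart SP 3 genes were lower, where 5.2% of all genes were called, 1.91% as higher and 3.29% as lower. These were Clec14a, at the fill on 1 of the 2 heart SP arrays (adjusted p = 0.0181), Clec4d, at the fill on both (adjusted p = 0.0145), and Clec9a (-3.89 ± 1.04, adjusted p = 0.0465), whose call was lost in 15 of 24 alternatives. Endothelial markers were lower for 5 of 8 genes (median -5.82) and macrophage markers for 5 of 14 (median -5.48) in the same comparison, and their part was not tested. With array medians aligned in place of quantile normalisation, 8 genes were higher and 1 lower in heart SP. There 14.8% of all genes were called, and the all-gene median difference was 1.34, beside 0.06 with quantile normalisation. With the deposited values 2 were higher and 2 lower, where 4.68% of all genes were called. The direction of the count therefore depends on the scaling. Heart SP had 0 calls without cardiomyocyte replicate 2 and 5 without heart c-kit replicate 1. Tlr2 was at 4.92 and 5.09 in heart SP against -1.0 and 2.27 in cardiomyocytes, and did not pass (4.37 ± 1.36, adjusted p = 0.0771).

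In heart Sca1 cells no receptor passed against cardiomyocytes in limma, where 0% of all genes did, and 9 of the 46 had an unadjusted p under 0.05, beside 2068 of all 17710 genes. Clec4d and Fcgr3 had the smallest p, with differences of -4.98 ± 1.11 (adjusted p = 0.133) and -3.01 ± 0.74 (adjusted p = 0.147). Without heart Sca1 replicate 3, where Fcgr3 was at 3.09, Fcgr3 was lower by 3.83 on the log2 scale (adjusted p = 0.0158). Tlr4, the receptor for bacterial lipopolysaccharide, was at 3.07, 3.74 and 3.22 in heart Sca1 cells and 0.87 and 2.48 in cardiomyocytes. Across all groups its mean ran from 1.07 ± 0.85 in MSC to 4.59 ± 1.42 in heart SP (SD, n = 3 and n = 2), and it missed the F test (limma adjusted p = 0.0589).

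The difference between c-kit cells and the other population was also compared between organs, as a contrast chosen after seeing the data. That other population was passaged MSC in marrow and a CD45- and CD31-negative Sca1 sort in heart. Organ therefore cannot be told apart from passaging or sort here. The contrast passed for 7 of the 46 genes, where 7.46% of all genes were called, and the values are given among the additional observations.

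Many of these genes lie side by side. By RefSeq gene order on GRCm38.p6, 21 of the 46 are on chromosome 6, including a run of 7 neighbouring Clec4 genes and a run of 10 genes from Clec2i to Clec7a, counting members at most 3 gene places apart. Levels differed between neighbours. In the run of 7, Clec4b2, Clec4n and Clec4d passed the F test and Clec4a1, Clec4a3, Clec4a2 and Clec4e did not. Clec4b2 averaged 1.5 ± 1.57 in marrow c-kit cells and was at the fill in MSC, whereas Clec4d, 2 places further, averaged 7.18 ± 0.37 in MSC, against 3.09 ± 0.72 in marrow c-kit cells (SD, n = 3 each). Clec4e, the partner receptor of Clec4d, had group means from 1.57 in heart Sca1 cells to 3.11 in marrow c-kit cells (limma F test adjusted p = 0.43). In the run of 10, Clec1b, Clec9a, Clec1a and Clec7a passed. On chromosome 1 the neighbours Fcgr2b, Fcgr4 and Fcgr3 all passed, as did Tlr1 and Tlr6 on chromosome 5 and Tlr7 and Tlr8 on the X chromosome. Several of these are close copies, and whether their probes also bind a neighbour's RNA was not tested.

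**Figure D5:**
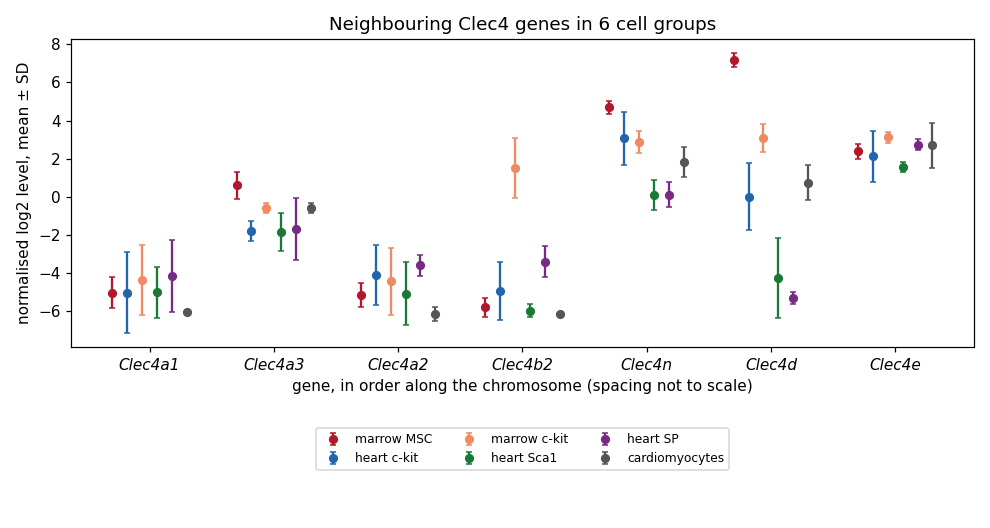
Group mean of the normalised log2 level with its SD (vertical axis) for 7 neighbouring Clec4 genes in their order along chromosome 6 (horizontal axis, not to scale), with groups in colour. Clec4d is highest in MSC (7.18 ± 0.37) and lowest in heart SP, Clec4b2 is highest in marrow c-kit cells (1.5 ± 1.57), and Clec4e has group means between 1.57 and 3.11.

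Signalling partners were read from 3 lists. Of the ITAM pathway 15 of 19 genes were measured, and in MSC against heart Sca1 cells 6 were higher and none lower. Fcer1g, the γ chain of Fcgr3 and Fcgr4, was higher by 6.91 ± 0.80 (SE, limma adjusted p = 9.97e-05), with levels of 7.41, 7.97 and 7.43 in MSC against 0.76, -0.04 and 1.35 in heart Sca1 cells. The adaptor Lat2 was higher by 6.58 ± 0.47 (adjusted p = 3.68e-06) and the phosphatase Ptpn6 by 5.95 ± 0.97 (adjusted p = 0.00129). The list's median difference was 3.63, beside 0.10 over all genes. Against marrow c-kit cells only Lat2 was higher in MSC, by 1.72 ± 0.47 (adjusted p = 0.0298). In heart c-kit cells 5 of the 15 were below marrow c-kit cells and none above, led by the kinase Btk (-5.74), the phospholipase Plcg2 (-5.39) and the lipid kinase subunit Pik3cd (-5.23).

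The Toll-like receptor adaptor and signalling list had 26 of 31 genes measured. In MSC 7 were higher and 1 lower than in marrow c-kit cells, among them Nfkbia (4.44 ± 0.49, limma adjusted p = 3.75e-05), the inhibitor of NF-κB that its own pathway induces, Irf5 (4.35 ± 0.99, adjusted p = 0.0108) and Irak2 (3.52 ± 0.55, adjusted p = 0.000677), with Irak1 lower (-2.10 ± 0.54, adjusted p = 0.0222). Against heart Sca1 cells 3 were higher and 2 lower in MSC. Cd180, a Toll-like receptor relative of B cells and macrophages, was higher by 4.33 ± 0.81 (adjusted p = 0.00319), Cd14, the lipopolysaccharide co-receptor, by 4.19 ± 0.91 (adjusted p = 0.00858) and Irak2 by 3.59 ± 0.55 (adjusted p = 0.000805). Of 9 other Fc receptors, Fcer1a was lower in MSC than in marrow c-kit cells (-3.55 ± 0.93, adjusted p = 0.0242) and the other 8 did not pass.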

How the data were processed

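Expression was measured on arrays in 16 samples. Per the labels, total RNA was amplified with WT-Ovation Pico and labelled with Cy5, and only the Cy5 channel was used. The deposited values are log2 signals that the authors appear to have centred on each array, as read from the values. Sources used here do not state scanner settings or background correction. Array medians differed by up to 1.45, above the limit of 0.5 set for it, so the deposited log2 values were quantile-normalised. Of 26423 probes 20377 had a symbol in the platform table, 38 were ambiguous, and the highest-mean probe stood for each of 17710 genes. One limma fit (version 3.58.1, R 4.3.3) over all 6 groups gave an F test and 9 comparisons, each Benjamini-Hochberg adjusted over all genes, with calls at an adjusted p under 0.05. Every adjusted p in the text is from limma. The method was tested on simulated data. Members and lists were chosen with earlier results of these data known. The rule named Clec4d, the Fcgr genes, Tlr2, Tlr4, in each comparison up to 4 called members per direction whose groups do not overlap, the 3 members of each family with the smallest F test p, and up to 3 called genes of each list. Other genes named, such as Clec4e, were chosen after their values were seen. Alternatives changed the scaling, low-value filter, floor, probe rule, array weights, arrays fitted and replicate block, and left out each array. Replicate numbers were not taken to pair the arrays.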

Additional observations from a re-analysis of the deposited data

Results flagged for a closer look

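The step from c-kit cells to the other progenitor population was compared between marrow and heart, by the difference of marrow MSC minus marrow c-kit cells less that of heart Sca1 minus heart c-kit cells. This contrast was chosen after seeing the data. Organ cannot be told apart in it from the passaging of MSC or from the CD45- and CD31-negative sort of heart Sca1 cells. The contrast passed for 7 of the 46 genes, against 7.46% of all genes. Clec4d differed by 8.34 ± 1.41 (SE, limma adjusted p = 0.00246), being 4.09 in marrow and -4.26 in heart. Clec7a differed by 8.88 ± 1.72 (adjusted p = 0.00592), being 7.11 in marrow and -1.77 in heart. The marrow step was upward for both lectins. Clec4n differed by 4.8 ± 1.00 (adjusted p = 0.0096), Fcgr4 by 4.18 ± 1.03 (adjusted p = 0.0242) and Tlr8 by 3.80 ± 0.78 (adjusted p = 0.00887). Clec3b ran the other way, at -6.79 ± 1.17 (adjusted p = 0.00272), being -0.57 in marrow and 6.22 in heart with saturated heart Sca1 spots. Clec4b2 passed too (adjusted p = 0.00492), but all MSC and heart Sca1 arrays and 2 heart c-kit arrays were at the fill, so its fitted value of -6.27 is no measured size and ran from -7.19 to -3.14 over the alternatives. The result for Fcgr4 was lost in 6 of 24 alternatives and that for Tlr8 in 1.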

How the results depend on the processing

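None of the calls of single genes in the 9 comparisons and the organ contrast reversed under the alternatives run, and the causes of the shifts below were not tested. Percentages in brackets are the share of all genes called in the same fit. With array medians aligned, heart c-kit cells against cardiomyocytes had 1 call (0.836%) and heart SP against cardiomyocytes 9 (14.8%). With the deposited values, heart c-kit against marrow c-kit cells had 5 (7.74%) and heart c-kit cells against cardiomyocytes 1 (1.26%). With the lowest 30% of genes left out, marrow c-kit cells against cardiomyocytes had 5 (18.2%) and heart c-kit cells against cardiomyocytes 1 (6.37%). A floor at the 30th percentile gave heart Sca1 cells against cardiomyocytes 3 calls (2.24%) and heart SP against cardiomyocytes 6 (7.93%). The mean over probes gave 5 for heart c-kit against marrow c-kit cells. Array weights by group gave 19 for MSC against marrow c-kit cells (24.7%) and 18 for MSC against heart Sca1 cells (24.1%). They gave 1 for heart c-kit cells against cardiomyocytes (1.37%) and 0 for heart SP against cardiomyocytes (0.723%). Fits on the arrays compared alone gave 16 for MSC against marrow c-kit cells (22.9%) and 16 for MSC against heart Sca1 cells (21.8%). They gave 1 for heart c-kit against heart Sca1 cells (4.44%). Heart c-kit cells (0.0169%) and heart SP (0%) against cardiomyocytes had 0. Shares moved with left-out arrays too. For MSC against marrow c-kit cells they were 7.8% without MSC replicate 2 and 13% without heart c-kit replicate 1. Leaving out each array in turn gave 15 to 24 in the F test, 4 to 12 for MSC against marrow c-kit cells, 8 to 12 for MSC against heart Sca1 cells, 2 to 6 for heart c-kit against marrow c-kit cells and 4 to 9 for heart c-kit against heart Sca1 cells. Against cardiomyocytes the ranges were 5 to 12 for MSC, 3 to 9 for marrow c-kit cells, 0 to 3 for heart c-kit cells, 0 to 1 for heart Sca1 cells and 0 to 5 for heart SP.

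With the replicate number as a block the F test had 20 calls (29.2% of all genes). MSC against marrow c-kit cells had 9 (10.6%) and MSC against heart Sca1 cells 12 (9.77%). Heart c-kit against marrow c-kit cells had 3 (10.5%) and heart c-kit against heart Sca1 cells 5 (10.7%). Against cardiomyocytes the block gave 9 for MSC (6.61%), 7 for marrow c-kit cells (11.3%) and 2 for heart c-kit cells (2.96%). It gave 0 for heart Sca1 cells (0%) and 2 for heart SP (4.33%). Same-numbered arrays of different groups had a median r of 0.008 over 36 pairs, with a range from -0.18 to 0.40. Differently numbered arrays had a median r of -0.001 over 70 pairs, with a range from -0.40 to 0.32. The numbers were not taken as pairs, but a median over all pairs cannot exclude a pairing between particular groups. Aligning medians moved the all-gene median to 1.34 for heart SP and 0.83 for heart c-kit cells, each against cardiomyocytes. Clec11a was lost in 18 of 25 alternatives, Tlr8 in heart c-kit against heart Sca1 cells in 17, and Tlr13 in MSC against cardiomyocytes in 14. Clec9a in heart SP against cardiomyocytes was lost in 15 of 24 and Tlr1 in MSC against cardiomyocytes in 12 of 24. Tlr8 in MSC against marrow c-kit cells was lost in 11 of 25, Clec4n in MSC against cardiomyocytes in 10 of 25, Clec4a3 in MSC against heart Sca1 cells in 9 of 25 and Clec2i in 11 of 24. Groups of 2 or 3 arrays, dim heart SP arrays and values at the fill limit what these data can show.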

Other observations

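Pattern receptors of other families, of which 20 of 22 were measured, also differed between the populations, and this list shares Mrc1 with the macrophage markers. In MSC against heart Sca1 cells 7 were higher and 2 lower. Trem2, a lipid-sensing receptor of macrophages, had a mean level of 7.82 in MSC, 1.81 in heart c-kit cells, 1.46 in marrow c-kit cells, 0.48 in heart Sca1 cells, 0.91 in heart SP and 1.53 in cardiomyocytes. The scavenger receptor Msr1 had means of 6.31 in MSC and -0.47 in heart Sca1 cells. Scara5, a ferritin receptor of stromal cells, ran the other way, with means of -3.72 in MSC, -5.28 in heart c-kit cells, -3.74 in marrow c-kit cells, 7.57 in heart Sca1 cells, 5.01 in heart SP and 2.65 in cardiomyocytes. Mrc2, a collagen receptor of fibroblasts, was high in MSC (7.06), heart Sca1 cells (7.97), heart SP (7.81) and cardiomyocytes (6.51), against 1.98 in heart c-kit cells and -2.11 in marrow c-kit cells.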
